A study of Sus scrofa with 6 samples.

Results

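miR-21 in cultured immature Sertoli cells of the pig is described by its 2 arms, ssc-miR-21-5p and ssc-miR-21-3p, out of 1645 entries in a table of small RNA levels, of which 358 are known pig miRNAs and the others predicted ones. The arms were taken by name, and both are listed. miR-21 was selected on its level, as the miRNA with the largest share of these libraries, so its levels and its place in the order are given as a description, without a test. Sertoli cells are the somatic cells that carry and feed germ cells in the seminiferous tubule. They were isolated from fetal pigs, 80 to 90 days into gestation, and kept for 6 h in medium with fetal bovine serum before treatment. The AA2P group (3 libraries) received the sesquimagnesium salt hydrate of L-ascorbic acid 2-phosphate (AA2P), a stable form of vitamin C, at 250 µM, and the control group (3 libraries) received none. The labels give neither the length of treatment nor the culture or animal behind each library. P-values therefore measure only the spread between these libraries, which may be technical. The libraries held 25.83 to 35.97 Mreads (counted reads in units of 1e+06, estimated from the step between low values).

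A miRNA is cut from a hairpin transcript, and usually 1 arm of the hairpin is loaded into an Argonaute protein while the other, the passenger, is degraded. miR-21-5p is the loaded arm of the miR-21 hairpin. In mammals it is known for repressing PDCD4, an inhibitor of translation, and the Sprouty proteins, inhibitors of growth factor signalling, and its gene is induced by STAT3, AP-1 and NF-κB. In the mouse testis it is known from spermatogonial stem cells, whose survival in culture depends on it. In human and mouse the hairpin lies at the end of VMP1, a gene for an autophagy protein. The pig RefSeq table (Sscrofa11.1), in the order of gene starts, places MIR21 between PTRH2 and TUBD1. Neither these nor the next genes out, CLTC and RPS6KB1, overlap it, and genes further out were not examined. Coordinates are not printed, because the genome build behind the deposited values is not given in the sources used here.

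miR-21-5p was the most abundant entry in each of the 6 libraries. Levels are in TPM, here the reads of an entry scaled to a common total per library, with no length term, so that a level is also a share. How readily an RNA is ligated during library making affects its level in any small RNA library, so the order of different miRNAs is that of the libraries. miR-21-5p stood at 422056, 369599 and 441014 TPM in the AA2P libraries, against 513034, 530173 and 518480 TPM in the control libraries. All 3 AA2P libraries lay under all 3 control libraries. In the control libraries miR-21-5p took 51.3 to 53.0% of the TPM, more than all other entries together. In the AA2P libraries it took 37.0 to 44.1%, less than all other entries together.

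The entry in second place differed between the groups. In the AA2P libraries it was miR-30a-5p, a member of the miR-30 family known for restraining mesenchymal change in epithelia, and miR-21-5p was 3.55 to 4.73 times as high. In the control libraries it was let-7i-5p, a member of the let-7 family that represses growth and stem cell genes, and miR-21-5p was 6.39 to 6.997 times as high. In AA2P replicate 2 miR-30a-5p and let-7i-5p were close, at 103969 and 102822 TPM. The next 9 entries by mean TPM together took 34.1 to 38.7% of the TPM in the AA2P libraries and 27.5 to 28.0% in the control libraries. These comprised 4 let-7 members (let-7a, let-7f-5p, let-7g and let-7i-5p), 2 miR-30 members (miR-30a-5p and miR-30d), and miR-92a, miR-100 and miR-10a-5p. miR-21-5p exceeded the sum of these 9 in every library except AA2P replicate 2, where it took 37.0% and the 9 took 38.7%.

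**Figure D1:**
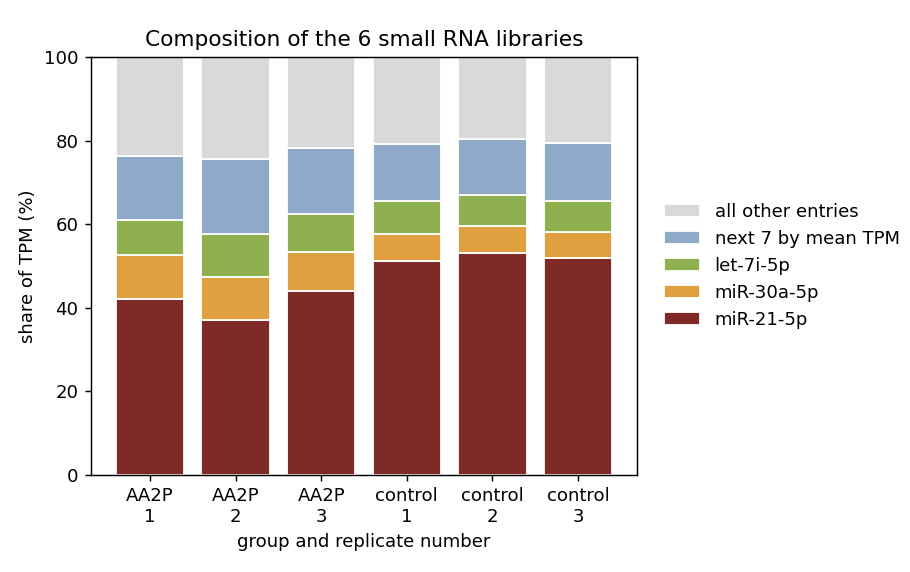
Share of the TPM (y axis, percent) of each library (x axis, group and replicate number) taken by miR-21-5p, miR-30a-5p, let-7i-5p, the next 7 entries by mean TPM and all other entries. The miR-21-5p block ends between 37.0 and 44.1% in the AA2P libraries and between 51.3 and 53.0% in the control libraries.

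The control libraries differed little from each other in miR-21-5p. Its share was 41.1% ± 3.70 in the AA2P group and 52.1% ± 0.876 in the control group (SD, n = 3 each). The coefficient of variation, the SD as a percent of the mean, was thus 9.003% in the AA2P group and 1.68% in the control group. Among the 100 most abundant entries the median coefficient was 9.46% in the AA2P group, where 52 entries varied more than miR-21-5p. In the control group the median was 8.32%, and 96 of the 100 entries varied more than miR-21-5p. The same relative change in amount moves a large share less than a small one, so these ranks are a description. AA2P replicate 2, the lowest library, carried most of the spread within its group. The difference in spread between the groups was not tested. Each miR-21-5p value rests on 11.3 to 17.1 implied Mreads, for which counting error alone is 0.0242 to 0.0297% of the level, far under the spread between libraries. Such reads are not independent molecules, so this figure covers counting error only.

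With AA2P, the share of miR-21-5p fell by 10.97 percentage points of the TPM, and its mean level was 1.27-fold lower. The log2 fold change of AA2P over control on the log2(TPM + 1) scale was -0.35 (SE 0.0805; 95% interval -0.54 to -0.15), and it passed at an adjusted p of 0.0254 (limma across 433 entries, Benjamini-Hochberg). All 3 AA2P libraries showed the direction. In the same fit 24.7% of the entries were called in either direction and 4.85% were called as lower. The 21 lower calls were 13 without control replicate 2 and 8 without control replicate 3, and the 107 calls in all were 63 without control replicate 3. The groups did not overlap in TPM for 49.7% of the entries, and for 9.24% the AA2P group was the lower one, so that separate groups were common in these data. On the share, p was 0.1 in a two-sided exact permutation test, which cannot go lower with 3 libraries a group. Of all tested entries, 58 had a lower log2 fold change than miR-21-5p and 374 a higher one, and the median of all was 0.25. The call of miR-21-5p ended without any 1 control library, at an adjusted p of 0.0850 without control replicate 1, 0.0688 without control replicate 2 and 0.0882 without control replicate 3 (limma). It ended too with no filter on low values (limma, adjusted p = 0.157), with no trend in the variance (0.0595) and with replicate number as a block (0.126). It held without each AA2P library (limma, adjusted p = 0.00967 to 0.0496), and the fold change was then -0.27 without AA2P replicate 2, the lowest library.

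**Figure D2:**
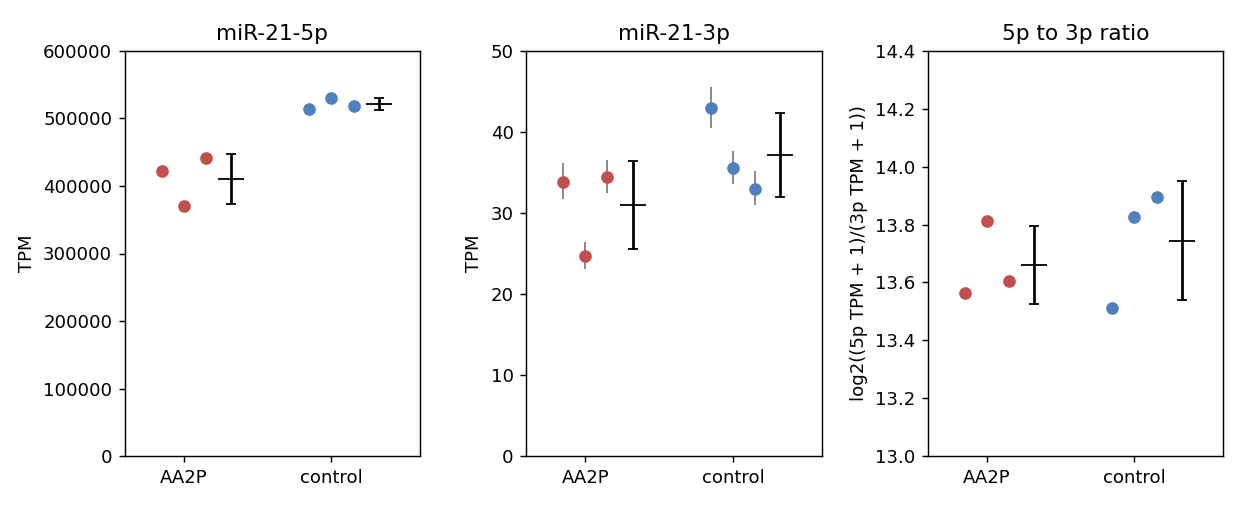
Levels of miR-21-5p (left, TPM) and miR-21-3p (middle, TPM, grey bars: 95% Poisson interval of the implied reads) and the log2 ratio of the arms (right, axis not from 0) by group. Points are libraries, and the black marks are the group mean with SD. For miR-21-5p the groups do not overlap, and for miR-21-3p and the ratio they do.

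miR-21-3p, the passenger arm, was a minor product. It stood at 33.87, 24.69 and 34.42 TPM in the AA2P libraries, against 42.94, 35.54 and 33.00 TPM in the control libraries. The groups overlapped, with control replicate 3 under 2 of the AA2P libraries and AA2P replicate 2 lowest of all. It ranked between 200 and 214 among all entries of the AA2P libraries and between 177 and 186 in the control libraries. Its mean was 31.0 ± 5.47 TPM in the AA2P group and 37.2 ± 5.16 TPM in the control group (SD, n = 3 each). The log2 fold change was -0.26 (SE 0.169; 95% interval -0.67 to 0.15) and did not pass (limma, adjusted p = 0.294). A value of miR-21-3p rests on 888 to 1146 implied reads. Its 95% Poisson interval was 31.7 to 36.1 TPM in AA2P replicate 1 and 23.1 to 26.4 TPM in AA2P replicate 2, 2 libraries of 1 group. In the control group it was 40.4 to 45.5 TPM in replicate 1 and 31.0 to 35.1 TPM in replicate 3. In both groups these intervals do not overlap.

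The balance of the arms is a ratio within a library, in which the library total cancels. miR-21-5p had 12461, 14970 and 12813 TPM for each TPM of miR-21-3p in the AA2P libraries, against 11948, 14918 and 15712 in the control libraries. The range of the AA2P libraries lay within that of the control libraries. The log2 ratio averaged 13.66 ± 0.134 in the AA2P group and 13.74 ± 0.205 in the control group (SD, n = 3 each), a change of -0.08 (SE 0.194; 95% interval -0.51 to 0.34; limma, adjusted p = 0.877). In this comparison 0 of 39 hairpins with a mean of at least 10 TPM in each arm were called by limma (0%), and 4 had an unadjusted p under 0.05, miR-21 not among them. miR-21 had the most unequal arms of these 39 hairpins, with a mean log2 ratio of 13.70. It was selected on its level, so this place is a description. let-7i followed at 12.76, let-7f at 10.17 and miR-7 at 8.83, all toward the 5p arm, and miR-27b at 8.60 toward the 3p arm.

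Relative to the other abundant miRNAs, miR-21-5p was lower with AA2P for most of them. These ratios are also free of the library total. The ratio of miR-21-5p to miR-30a-5p was 4.03, 3.55 and 4.73 in the AA2P libraries, against 8.16, 8.19 and 8.26 in the control libraries. This is the largest change among the 9 entries, a log2 change of the ratio of -1.01 (SE 0.127; limma, adjusted p = 0.00325). The 3 control ratios lie close together, and the 3 AA2P ratios are all lower and more spread. The ratio to let-7i-5p was 5.09, 3.59 and 4.95 in the AA2P libraries, against 6.39, 6.997 and 6.87 in the control libraries, a log2 change of -0.59 (SE 0.157; limma, adjusted p = 0.0232). AA2P replicate 2 had the lowest ratio to each of these 2 miRNAs.

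Of the remaining 7, the ratio fell for let-7f-5p (log2 change -0.76), let-7g (-0.77) and miR-30d (-0.81), and also for miR-100 (-0.39) and miR-10a-5p (-0.58), with limma adjusted p-values of 0.0109 to 0.0231. The first 3 of these belong to the families of let-7i-5p and miR-30a-5p. For let-7a the log2 change was -0.58 (SE 0.220) and did not pass (limma, adjusted p = 0.0620). For miR-92a, a product of the miR-17-92 cluster that drives proliferation, the groups overlapped, with a ratio of 35.2 ± 4.21 in the AA2P group and 37.5 ± 3.28 in the control group (SD, n = 3 each). Its log2 change was -0.10 (SE 0.130; limma, adjusted p = 0.554). The calls for both miR-30 members, let-7g and let-7f-5p held under all 13 alternatives run on these ratios. Those for let-7i-5p, miR-100 and miR-10a-5p all ended without control replicate 3 (limma, adjusted p = 0.0728, 0.0851 and 0.0719). Without control replicate 2 those of let-7i-5p (0.0625) and miR-10a-5p (0.0563) ended. Without AA2P replicate 1 (0.0748 and 0.0555) or control replicate 1 (0.0692 and 0.0547) those of miR-100 and miR-10a-5p ended.

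**Figure D3:**
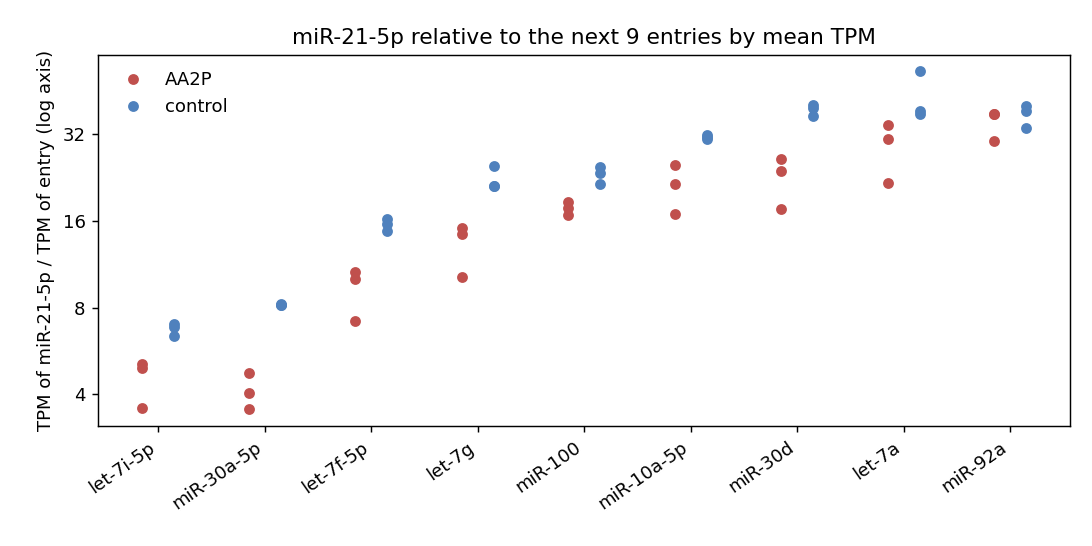
Ratio of the TPM of miR-21-5p to that of each of the next 9 entries by mean TPM (y axis, log scale), with 1 point per library, AA2P left of control for each entry. The groups are apart for 8 of the 9 entries and overlap for miR-92a, and the 3 control ratios to miR-30a-5p lie between 8.16 and 8.26.

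Over all entries the same ratio was tested for each of the 432 others. Relative to miR-21-5p, 227 entries were higher and 10 lower with AA2P at an adjusted p under 0.05 (limma), so 54.9% were called in either direction and 2.31% as lower. The ratios all share the miR-21-5p values, so they are not independent, and a change of miR-21-5p alone moves every one of them. The median log2 change relative to miR-21-5p was 0.59. Among the 10 that fell more than miR-21-5p were miR-222 (-1.09), miR-146a-5p (-0.90) and miR-221-3p (-0.76), of which miR-146a-5p restrains Toll-like receptor signalling and the other 2 repress the cell cycle inhibitor CDKN1B. The number called was 153 without AA2P replicate 1, 146 without control replicate 2 and 125 without control replicate 3.

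The TPM that miR-21-5p lost reappeared in other entries, as it must where each library sums to the same total. The loss of miR-21-5p was 85.2% of all losses. miR-30a-5p gained the most, 3.72 points, followed by 3 members of the let-7 family, let-7i-5p with 1.44 points, let-7f-5p with 1.14 points and let-7g with 0.819 points, and by miR-7-5p with 0.561 points, a miRNA of neurons and endocrine cells that represses EGFR. These 5 made up 59.6% of all gains. Against control, let-7i-5p did not pass (limma, adjusted p = 0.105). With miR-21 left out of the totals, miR-30a-5p still rose (log2 fold change 0.37; limma, adjusted p = 0.0121). Under that scaling let-7f-5p, let-7g and miR-7-5p did not pass (limma, adjusted p = 0.433, 0.373 and 0.0871). Nor did let-7i-5p, whose log2 fold change turned to -0.05 (0.636). Outside miR-21, the largest losses were those of miR-221-3p (-0.325 points), miR-222 (-0.297) and miR-146a-5p (-0.246). Whether miR-21-5p became rarer per cell or the other miRNAs more abundant cannot be told apart from shares.

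An entry this abundant bears on the scale of all others. TPM outside miR-21 was 55.9 to 63.0% of the total in the AA2P libraries and 47.0 to 48.7% in the control libraries, a log2 difference of 0.30. As deposited, the median log2 fold change of the tested entries was 0.25, with 86 entries called as higher and 21 as lower. With miR-21 left out of the totals, the median was -0.01, with 39 called as higher and 43 as lower. Of the 107 calls, 60 kept their direction and call under this scaling and 47 did not pass, while 22 other entries gained a call. The calls were 48 higher and 50 lower with trimmed-mean and with median-of-ratios scaling, 44 and 39 with quantile normalization, and 55 and 36 with the 10 most abundant entries left out of the totals. miR-21-5p itself had a log2 fold change of -0.64 (SE 0.117; limma, adjusted p = 0.0146) with miR-21 left out of the totals and -0.63 and -0.62 with the trimmed-mean and median-of-ratios scalings (limma, adjusted p = 0.0107 and 0.0124). Quantile normalization gives the highest rank the same value in each library and so sets the change of miR-21-5p to 0 (limma, adjusted p = 1).

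**Figure D4:**
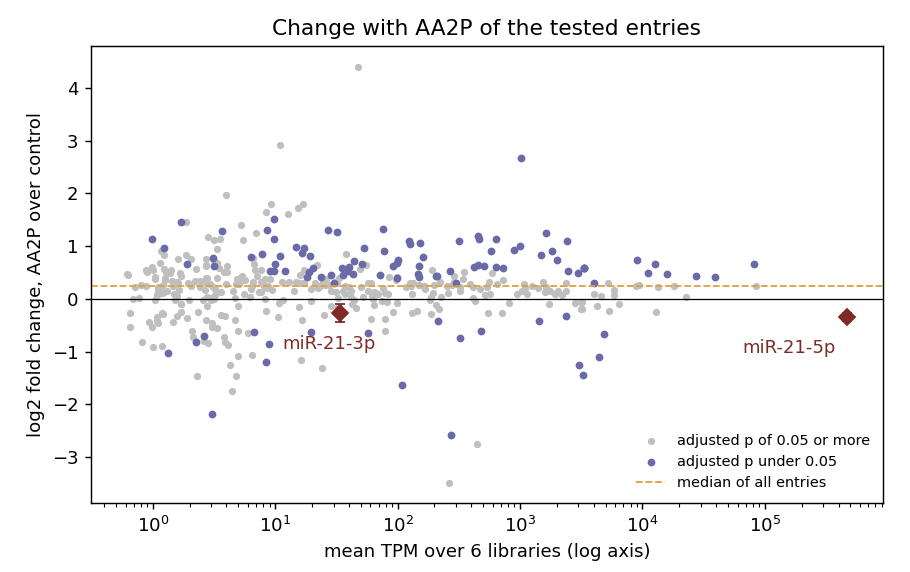
Log2 fold change of AA2P over control (y axis) against mean TPM over the 6 libraries (x axis, log scale) for the 433 tested entries, with the miR-21 arms as diamonds with SE. miR-21-5p stands alone at the right, at -0.35, under the dashed median of 0.25, and miR-21-3p lies at -0.26 among many entries of like level.

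**Figure D5:**
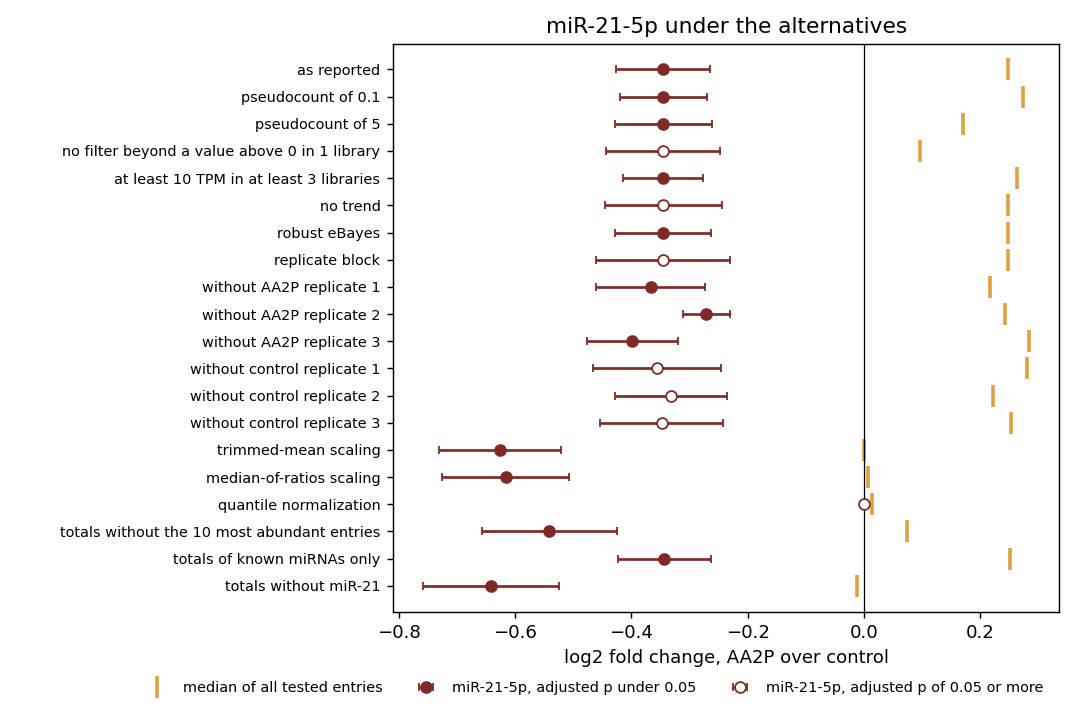
Log2 fold change of miR-21-5p (x axis, points with SE) as reported and under each of 19 alternatives, filled where the adjusted p was under 0.05, with the median of all tested entries as a bar. The points lie between -0.64 and -0.27, except at 0 with quantile normalization, which fixes the highest rank.

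The entries whose levels followed miR-21-5p most closely were sought among the 140 others with a mean of at least 100 TPM, by the SD over the 6 libraries of the log2 ratio to miR-21-5p. A small SD means a nearly constant proportion in every library. The median SD was 0.387. The smallest belonged to the predicted entry Novel_708 (0.0506), to miR-23a (0.0811) and miR-27a (0.120), 2 products known from a shared cluster in mammals, to miR-193a-5p (0.125) and to miR-29a-3p (0.132), a repressor of collagens. miR-23a stood at 2238, 2044 and 2071 TPM in the AA2P libraries, against 2575, 2689 and 2732 TPM in the control libraries. miR-27a stood at 5339, 4635 and 4640 TPM in the AA2P libraries, against 5731, 5545 and 5815 TPM in the control libraries. For both, as for miR-21-5p, every AA2P library lay under every control library. miR-21-3p, under the limit of 100 TPM, had an SD of 0.161 to its own 5p arm, and 9 of the 140 entries had a smaller one.

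Of these 5, Novel_708, miR-23a and miR-29a-3p fell with AA2P (log2 fold change -0.41, -0.33 and -0.42; limma, adjusted p = 0.0383, 0.0156 and 0.0183), while miR-27a (0.0789) and miR-193a-5p (0.0746) did not pass. With miR-21 left out of the totals both fell, by 0.52 and 0.59 on the log2 scale (limma, adjusted p = 0.0135 for both). The 5 were chosen for a near-constant ratio to miR-21-5p over all 6 libraries, so their direction follows largely from that choice and is a description. Each of the 3 calls ended under some alternatives: those of Novel_708 and miR-23a without control replicate 2 (0.0976 and 0.0535) and all 3 without control replicate 3 (0.102, 0.0683 and 0.0720, limma). Those of Novel_708 (0.0898) and miR-29a-3p (0.0619) ended without control replicate 1, and that of Novel_708 without AA2P replicate 1 (0.0629) and AA2P replicate 2 (0.0527). At the other end were Novel_266 (3.55) and Novel_770 (3.30), each listed at 0 in 1 AA2P library, and miR-184 (1.67), the miRNA with 1747 ± 354 TPM in the AA2P group and 271 ± 29.4 TPM in the control group (SD, n = 3 each).

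Of 5 other miRNAs known to act on PDCD4, all listed, 4 were tested, of which 1 rose and 3 did not pass (limma), with a median log2 fold change of 0.05 beside 0.25 for all entries. Over all entries 24.7% were called, so the count is near the background. Relative to miR-21-5p, 2 of the 4 rose and 0 fell, beside 54.9% called over all entries. miR-182 stood at 6310 and 6662 TPM, miR-183 at 4015 and 4413 TPM and miR-96-5p at 500.1 and 438.9 TPM in the AA2P and control groups. The fourth, miR-499-5p, rose at a low level, with 24.5 ± 1.98 TPM in the AA2P group and 16.1 ± 0.816 TPM in the control group (limma, adjusted p = 0.0108), but did not pass with miR-21 left out of the totals (0.122). Under that scaling miR-182 and miR-183 fell (limma, adjusted p = 0.0433 and 0.0103), and the log2 fold change of miR-96-5p turned negative (-0.10).

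Other miRNAs share inducers with miR-21. Of 8 tested miRNAs known to be induced by NF-κB, STAT3 or AP-1, 5 fell, 2 rose and 1 did not pass (limma), with a median log2 fold change of -0.86. Over all entries 24.7% were called, and 4.85% as lower. The lists were chosen with earlier results of these data known, so these counts are a description. The 5 that fell were miR-146a-5p, miR-146b, miR-155-5p, miR-221-3p and miR-222, and related members among them are not independent. miR-222 stood at 1474, 1883 and 1922 TPM in the AA2P libraries, against 5132, 4354 and 4711 TPM in the control libraries. miR-146a-5p stood at 1593, 1940 and 1877 TPM in the AA2P libraries, against 4183, 4000 and 4603 TPM in the control libraries. Both fell further than miR-21-5p in the ratio test above, and their calls against control held under all 19 alternatives, as did that of miR-221-3p, which had 2783 ± 204 TPM in the AA2P group and 6032 ± 1019 TPM in the control group (SD, n = 3 each; log2 fold change -1.10, SE 0.140; limma, adjusted p = 0.00427). miR-9, a neural miRNA that NF-κB induces in monocytes, rose, with 4409, 3840 and 3785 TPM in the AA2P libraries and 2745, 2600 and 2617 TPM in the control libraries (limma, adjusted p = 0.00443), but did not pass with miR-21 left out of the totals (0.0749). The other that rose, miR-181b, had a mean of 168 TPM in the AA2P group and 78.2 TPM in the control group. Its log2 fold change was 1.09 (SE 0.124; limma, adjusted p = 0.00315), and its call was not followed under the alternatives. Relative to miR-21-5p, 4 of the 8 fell and 3 rose, beside 54.9% of all entries called and 2.31% called as lower. SMAD proteins promote the processing of some other miRNAs, as they do that of miR-21, and 4 of 5 such miRNAs are listed. The 2 tested both rose, beside 86 of the 433 tested entries called as higher (limma). miR-215, which p53 also induces, stood at 45.4 ± 4.99 TPM in the AA2P group and 18.3 ± 1.04 TPM in the control group (SD, n = 3 each; limma, adjusted p = 0.00162), and miR-421-3p at 84.3 ± 12.5 and 60.7 ± 2.65 TPM (0.0393). miR-421-3p did not pass with miR-21 left out of the totals (limma, adjusted p = 0.270), nor without AA2P replicate 1 (0.0804) or 2 (0.0584) or without control replicate 1 (0.0837), 2 (0.105) or 3 (0.104).

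miR-21 is made by many cell types, so markers of others were measured beside it. In bulk RNA, fewer cells of a type and less RNA per cell cannot be told apart. The table holds miRNAs, not the protein genes that define Sertoli cells. Of 4 gonadal somatic miRNAs, miR-140-3p stood at 1178 ± 69.9 TPM in the AA2P group and 1106 ± 61.5 TPM in the control group, and did not pass (limma, adjusted p = 0.420). miR-140-5p stood at 114 ± 12.8 TPM in the AA2P group and 85.2 ± 8.81 TPM in the control group, in groups that did not overlap, and did not pass (limma, unadjusted p = 0.0152, adjusted p = 0.0577). miR-202-5p reached at most 1.01 TPM in any library and miR-202-3p 0.11 TPM. Of the 4 tested muscle and myoid markers 0 were called by limma, beside 24.7% of all entries, and 1, miR-1, had an unadjusted p under 0.05. The summed level of the 6 markers of muscle and myoid cells was 219 to 307 TPM in the AA2P libraries and 168 to 227 TPM in the control libraries. Most of it was miR-1, with 225 and 153 TPM in the AA2P and control groups. The mean of miR-143-3p was lower in the AA2P group (30.8 and 34.6 TPM). Those of miR-133a-3p (8.68 and 6.70 TPM) and miR-145-5p (1.89 and 1.28 TPM) were higher. The 5 mesenchymal markers summed to 11408 to 14980 TPM in the AA2P libraries and 8439 to 9873 TPM in the control libraries, nearly all of it miR-10b, which rose (limma, adjusted p = 0.0313). The other tested members did not pass. These were miR-199a-3p, with 1.62 and 1.81 TPM in the AA2P and control groups (limma, adjusted p = 0.732), and miR-199b-5p, with 1.96 and 1.98 TPM (0.950). miR-214-3p reached at most 0.04 TPM. The 7 blood and endothelial markers summed to 87.4 to 119 TPM in the AA2P libraries and 97.6 to 110 TPM in the control libraries, nearly all of it miR-126-3p. Of these, miR-142-3p, made by leukocytes, stood at 1.98 ± 0.627 TPM in the AA2P group and 0.507 ± 0.0802 TPM in the control group. It passed the filter on low values only through its AA2P libraries, so it could not have been called as lower. Its levels are thus a description, without a test. miR-451 reached at most 1.11 TPM and miR-150 0.11 TPM. miR-223, a miRNA of myeloid cells that did not pass the filter on low values, stood at 5.40, 0.06 and 0.00 TPM in the AA2P libraries, against 0.04, 0.00 and 0.00 TPM in the control libraries. miR-142-5p, also under that filter, stood at 2.08, 0.72 and 0.74 TPM in the AA2P libraries, against 0.35, 0.34 and 0.56 TPM in the control libraries. Both were highest in AA2P replicate 1. The germ cell marker miR-34c rose, with 242 ± 36.3 TPM in the AA2P group and 178 ± 8.01 TPM in the control group (limma, adjusted p = 0.0464). It was the 1 tested of 6 germ cell markers, 2 of them listed, and the list summed to 213 to 283 TPM in the AA2P libraries and 169 to 183 TPM in the control libraries. miR-10b and miR-34c did not pass with miR-21 left out of the totals (limma, adjusted p = 0.261 and 0.560), nor without control replicate 1 (0.0937 and 0.0947), 2 (0.0535 and 0.122) or 3 (0.0880 and 0.105). Without AA2P replicate 1 the calls of miR-10b and miR-34c ended (limma, adjusted p = 0.0629 for both), and without AA2P replicate 3 that of miR-34c (0.0831). No listed marker was at 0 in all 6 libraries. The part of these cell types in the fall of miR-21-5p was not tested.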

How the data were processed

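Small RNA libraries (6 in all) of immature pig Sertoli cells, 3 with AA2P and 3 controls, were compared. The values are TPM as deposited by the authors, 1 column per library, each scaled to a common total. Bowtie is named in the submitters' processing notes, while its version, the build, the miRBase release and the counting rule were not given in the sources used here. Depth was estimated from the step between low TPM values, and intervals and floors (3 reads, 0.0834 to 0.116 TPM) cover counting error only. Levels were compared as log2(TPM + 1) with limma 3.58.1 in R 4.3.3 (eBayes with trend) over 433 entries that reached 1 TPM or more in 3 or more libraries, with Benjamini-Hochberg adjustment and calls at an adjusted p under 0.05. The same model was fitted to ratios within libraries, of each entry to miR-21-5p and of hairpin arms. Scripts were tested on simulated data. Named entries were both arms, the next 9 by mean TPM, the 5 most and 3 least like miR-21-5p, the 5 largest gains and 3 largest losses of TPM, and up to 4 most abundant members per list; miR-301, miR-216, miR-451 and miR-105-1 were matched to list names after the names in the table were seen. miR-21 and the lists were chosen with earlier results of these data known. The results of 1 list are not reported here. The labels do not say whether replicate numbers pair the libraries, and the libraries were fitted as unpaired. Alternatives covered pseudocount, filter, variance model, scaling, left-out libraries and a replicate block. Sequences are not printed here.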

Additional observations from a re-analysis of the deposited data

How the results depend on the processing

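miR-21-5p was lower with AA2P in 18 of 19 alternatives and called in 12. Its call ended with no filter (-0.35; limma, adjusted p = 0.157), with no variance trend (-0.35; 0.0595), with the replicate block (-0.35; 0.126), with quantile normalization (0; adjusted p = 1) and without each control library. Quantile normalization fixes the highest rank, and for the others the cause was not tested. Leaving out 1 library gave -0.40 to -0.27 for miR-21-5p, -0.34 to -0.11 for miR-21-3p, -0.20 to -0.0081 for the arm ratio and -12.5 to -8.90 points for the share. miR-21-3p was called only with quantile normalization (-0.53; limma, adjusted p = 0.0367). Called entries numbered 57 with no filter, 63 with the replicate block and 63 to 97 without 1 library, and entries called relative to miR-21-5p 539, 131 and 125 to 243. Relative to miR-21-5p, signs of uncalled changes turned for miR-23a (-0.0063 without AA2P replicate 1, -0.0368 without AA2P replicate 2, -0.0014 without control replicate 1; range -0.0368 to 0.0812), miR-92a (-0.0084 to 0.168) and miR-193a-5p (-0.0415 to 0.124). Of 195 values of 15 named entries relative to miR-21-5p, 176 kept their result, 12 lost a call, 2 gained one and 5 turned sign. Whether replicate numbers pair the libraries is not settled. The correlations between libraries of the same number were 0.29, 0.06 and 0.18, and 5 of 6 libraries correlated best with their own number. Under the block the share differed by -11.0 points (exact permutation p = 0.25, which cannot go lower with 3 pairs). The ratio calls of let-7i-5p, miR-100 and miR-10a-5p ended under the block (limma, adjusted p = 0.0628, 0.0798 and 0.0511). Of 357 values of 19 named called entries, 255 kept their call, 102 lost it and 0 reversed. The 19 include miR-142-3p, which passed the filter on low values only through its AA2P libraries, so its values here are no test.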
